A study of Mus musculus with 9 samples.

Results

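The genes examined were 10 immediate early and injury response genes, Fos, Fosb, Jun, Junb, Atf3, Egr1, Nr4a1, Arc, Ier2 and Dusp1, chosen by name from the 55247 genes of the count table. All 10 were found, each in 1 row. RNA was sequenced from dorsal root ganglia (DRGs), the ganglia that hold the cell bodies of somatic sensory neurons, of E18.5 mouse embryos, shortly before birth. The 9 libraries fell into 3 genotypes with 3 libraries each. WT embryos carried neither allele, Isl1Cre/+ embryos carried 1 Cre allele at the Isl1 locus, and Isl1Cre/+::Meis2LoxP/LoxP embryos (mutant) carried the same Cre allele together with the LoxP-flanked Meis2 allele on both chromosomes. Cre was therefore driven wherever Isl1 is or was expressed, which in the DRG is the sensory neurons and not the glia, vessels or connective tissue, and both Cre genotypes shared the altered Isl1 locus. The LoxP sites flank the exon that begins the DNA-binding homeodomain, so a transcript without it can still be counted. The study's methods do not say whether a library came from 1 embryo or from pooled ganglia, and no undissected or time-stamped sample was analysed here. The study states for its experiments in general that replicates were biological and independent, and the labels do not tie a library to an embryo or litter.

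Immediate early genes are transcribed within minutes of a stimulus and need no newly made protein, because the factors that switch them on, such as CREB and serum response factor, are already present and only have to be phosphorylated. Most encode transcription factors whose mRNA is short-lived, so a level in tissue reflects the minutes to hours before lysis, handling of the tissue included. In sensory neurons, cutting the peripheral axon induces Atf3 and Jun for days, and both belong to the programme with which these neurons regrow an axon.

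The members belong to several families. Fos (chr12:85473890-85477273, plus strand) and Fosb (chr7:19302696-19310051, minus strand) encode leucine zipper proteins that pair with a Jun protein to form the AP-1 transcription factor. Jun (chr4:95049034-95052222, minus strand, a single exon) and Junb (chr8:84974484-84978718, minus strand) encode their partners. Atf3 (chr1:191170296-191218039, minus strand) encodes a stress-induced member of the ATF/CREB family. Egr1 encodes a zinc finger factor, and Nr4a1 (chr15:101254269-101274795, plus strand) an orphan nuclear receptor. Arc (chr15:74669083-74672570, minus strand) encodes a protein of synaptic plasticity rather than a transcription factor. Ier2 (chr8:84661331-84662852, minus strand, a single exon) encodes a small nuclear protein. Dusp1 (chr17:26505590-26562128, minus strand) encodes the phosphatase that inactivates MAP kinases and so ends the signal that induces the others. These positions are those of GENCODE M21 on GRCm38, the build to which the reads were aligned.

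Promoter sequences are shown for Fos and Nr4a1, both high in Isl1Cre/+ libraries 1 and 3 and low in library 2, and for Dusp1, the member with a full cyclic AMP response element. RefSeq gave windows of 300 bases on GRCm38.p6, from 250 bases before to 50 after a start, for 7 members (Fos, Fosb, Jun, Junb, Atf3, Nr4a1 and Dusp1). The cyclic AMP response element TGACGTCA, its core TGACG, the AP-1 site TGANTCA, the EGR site GCGNGGGCG and the CArG box, which serum response factor binds, were searched on both strands, and a TGACGTCA also counts as matches of its core. Capitals mark every match. The windows are chr12:85473640-85473939 (plus strand) for Fos, chr15:101266596-101266895 (plus strand) for Nr4a1 and chr17:26508423-26508722 (minus strand) for Dusp1, the last 2 at starts inside the longer gene models, all written from 5′ to 3′.
Fos: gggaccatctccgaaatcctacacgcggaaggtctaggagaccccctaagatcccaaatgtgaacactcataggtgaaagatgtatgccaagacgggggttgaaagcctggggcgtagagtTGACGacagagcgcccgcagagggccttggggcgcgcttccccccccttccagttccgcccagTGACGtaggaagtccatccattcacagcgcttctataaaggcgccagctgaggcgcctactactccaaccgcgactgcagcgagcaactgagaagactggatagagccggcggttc
Nr4a1: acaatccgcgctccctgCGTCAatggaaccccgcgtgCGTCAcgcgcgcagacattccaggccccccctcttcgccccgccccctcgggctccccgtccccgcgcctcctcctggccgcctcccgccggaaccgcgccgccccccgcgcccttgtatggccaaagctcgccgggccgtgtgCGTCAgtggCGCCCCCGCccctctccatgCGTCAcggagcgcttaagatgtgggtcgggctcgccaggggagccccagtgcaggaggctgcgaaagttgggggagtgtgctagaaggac
Dusp1: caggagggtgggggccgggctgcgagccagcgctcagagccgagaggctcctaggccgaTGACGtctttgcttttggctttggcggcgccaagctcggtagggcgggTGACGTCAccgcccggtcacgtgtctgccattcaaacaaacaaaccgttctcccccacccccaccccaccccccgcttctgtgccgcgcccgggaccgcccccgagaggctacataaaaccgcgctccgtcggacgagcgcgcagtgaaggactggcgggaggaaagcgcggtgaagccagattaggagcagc

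The core TGACG was in 6 of the 7 member windows, all but that of Jun, and in 20.8% of all 32851 windows of this length. Fos held 2 matches, Nr4a1 held 4, and Dusp1 held 3, of which 2 are the overlapping strands of its full element. The full element was in 1 of 7, that of Dusp1, and in 1.79% of all windows. An EGR site was in the windows of Fosb and Nr4a1, and in 5.55% of all windows. No member window held an AP-1 site or a CArG box as searched, which 7.81% and 1.63% of all windows held. These are matches of letters, and binding was not measured.

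The libraries held 23854607 to 29103444 counts, of which 99.4 to 99.5% lay in the 13200 genes with at least 100 counts in 1 or more libraries, the genes tested. The 10 members took 0.0146 to 0.0194% of the counts of a library. Meis2 was measured at 2746 to 2919 counts in WT, 2537 to 2857 in Isl1Cre/+ and 1004 to 1084 in mutant libraries. The 10 sensory neuron markers all passed the filter, with summed levels of 8970 to 14200 CPM (counts per 1000000 counts of the library, with TMM scaling). WT library 1 and mutant library 2 stood apart, with median rank correlations to the other libraries of 0.981 and 0.979 against 0.991 to 0.995 for the rest, and WT library 1 also had the highest mitochondrial share, 8.58%, against 3.04 to 7.19% in the others. Summed levels of 6 erythroid markers were 898 to 2140 CPM in WT, 344 to 982 in Isl1Cre/+ and 1210 to 3970 in mutant libraries, and those of 6 skeletal muscle markers 92.2 to 660, 46.9 to 130 and 102 to 1470 CPM, each highest in mutant library 2. All 6 erythroid and all 5 tested muscle markers met the criterion given with the comparisons as higher in mutant than in Isl1Cre/+ and as lower in Isl1Cre/+ than in WT, and no marker of any list was at 0 in every library. The part of blood, muscle or RNA quality in the members' values was not tested.

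Levels between genes were compared as CPM per kilobase of exon. Exon lengths were those of GENCODE M21, whose model of Ier2 has another version number than the one counted. Jun was the most abundant member, with a mean of 29.2 CPM per kilobase over the 9 libraries, and its lowest library lay above the highest library of every other member. Nr4a1 followed at 6.24, Dusp1 at 4.57, Ier2 at 4.5 and Egr1 at 3.15, then Junb at 2.24, Fos at 1.29, Arc at 1.02 and Atf3 at 0.788. Fosb was the lowest, at 0.0739. Neighbours in this order overlapped in range between libraries, except Jun above Nr4a1 and Atf3 above Fosb. Dusp1 exceeded Ier2 in 4 of 9 libraries, Egr1 exceeded Junb and Fos exceeded Arc in 6 of 9 each, and Ier2 exceeded Egr1 in 7 of 9, so these neighbours did not keep 1 order.

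**Figure D1:**
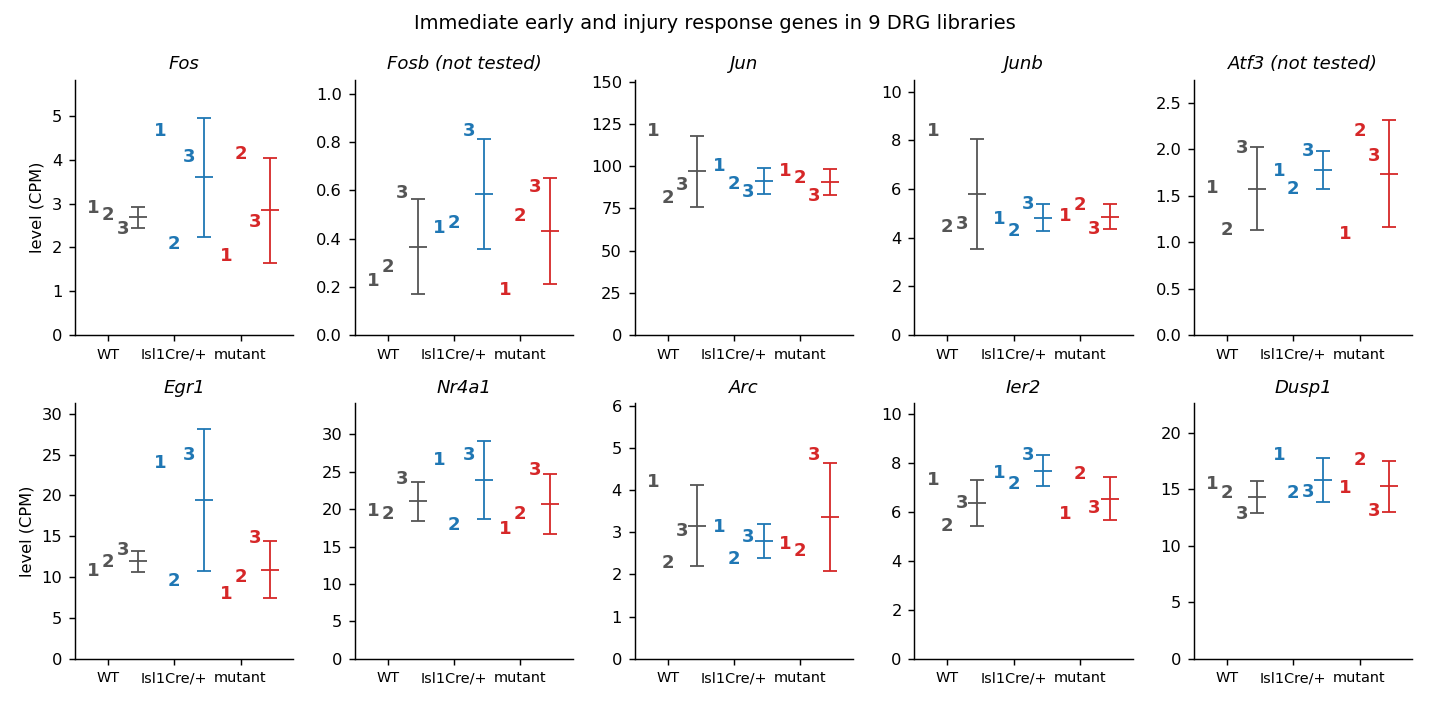
Level of each member in CPM (linear axis from 0, a scale of its own for each gene), by genotype. Digits stand at the value of that library number, and the bar beside them gives the mean and SD of 3 libraries. In Isl1Cre/+, library 2 is far below libraries 1 and 3 for Egr1 and Fos, while Jun and Junb are raised in WT library 1.

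The AP-1 genes of the Fos family were low and uneven. Fos had 77, 77 and 70 counts in WT, then 137, 58 and 115 in Isl1Cre/+ and 48, 109 and 63 in mutant libraries, in the order of library number. In CPM this was 2.69 ± 0.236 (SD, n = 3) in WT, 3.6 ± 1.35 in Isl1Cre/+ and 2.84 ± 1.19 in mutant. The WT libraries were close together, whereas both Cre genotypes held a library below all WT libraries and at least 1 above them. Fosb had 6, 8 and 17 counts in WT, then 13, 13 and 24 in Isl1Cre/+ and 5, 13 and 15 in mutant libraries. It stayed under 100 counts in every library and was left out of the test by the count filter, and at these counts the groups overlapped throughout.

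The Jun genes, their partners, were steadier outside a single library. Jun had 3227, 2296 and 2558 counts in WT, then 2934, 2499 and 2408 in Isl1Cre/+ and 2591, 2441 and 2000 in mutant libraries, or 97.2 ± 21.4, 91.4 ± 7.67 and 90.7 ± 7.85 CPM. Junb had 223, 125 and 131 counts in WT, then 140, 120 and 153 in Isl1Cre/+ and 130, 141 and 106 in mutant libraries, or 5.79 ± 2.26, 4.82 ± 0.556 and 4.87 ± 0.504 CPM. Both genes were highest of all 9 libraries in WT library 1, and the other 8 libraries lay between 81.3 and 99.9 CPM for Jun and between 4.29 and 5.4 CPM for Junb. Summed sensory neuron markers were also highest in WT library 1, at 14200 CPM, and a link between them was not tested. Of the exonic bases of Jun, 7.28% lie opposite its antisense gene Junos, which had 16 to 46 counts, and 7.52% of those of Junb lie opposite Prdx2. Whether the counting used strand is not stated, so reads over these bases are uncertain.

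Atf3, the marker of axon injury, had 42, 32 and 58 counts in WT, then 52, 44 and 56 in Isl1Cre/+ and 29, 58 and 47 in mutant libraries. It was present in every library and was left out by the same filter as Fosb. Its lowest and its highest library were both mutant, at 1.09 and 2.2 CPM, and the other genotypes lay between them.

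Egr1, a gene of 2 exons at chr18:34859823-34864984 on the plus strand, differed most between libraries among the tested members. It had 285, 334 and 383 counts in WT, then 705, 265 and 708 in Isl1Cre/+ and 211, 263 and 361 in mutant libraries. In CPM this was 12.0 ± 1.29 in WT, 19.5 ± 8.68 in Isl1Cre/+ and 10.9 ± 3.53 in mutant. Isl1Cre/+ libraries 1 and 3, at 24.0 and 25.0 CPM, lay above all 7 others, while library 2 of the same genotype, at 9.47 CPM, lay below all WT libraries.

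Nr4a1 had the same shape with a smaller amplitude. The WT libraries held 523, 547 and 692 of its counts, with 781, 502 and 773 in Isl1Cre/+ and 464, 511 and 613 in mutant libraries, or 21.0 ± 2.61, 23.9 ± 5.2 and 20.7 ± 4.01 CPM. Isl1Cre/+ libraries 1 and 3 were again the highest of the 9, and library 2 lay below every WT library.

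The members that are not transcription factors of these families varied less or in another order. Arc had 111, 64 and 87 counts in WT, then 92, 66 and 82 in Isl1Cre/+ and 72, 67 and 118 in mutant libraries, and its highest level, 4.84 CPM, was in mutant library 3. Ier2 had 194, 153 and 183 counts in WT, then 223, 199 and 236 in Isl1Cre/+ and 157, 198 and 150 in mutant libraries. Its Isl1Cre/+ mean, 7.68 ± 0.611 CPM, was above the 6.36 ± 0.944 of WT and the 6.53 ± 0.873 of mutant, and the groups overlapped only through WT library 1, at 7.3 CPM, and mutant library 2, at 7.52, both above the lowest Isl1Cre/+ library at 7.11. Dusp1 had 411, 415 and 368 counts in WT, then 532, 410 and 419 in Isl1Cre/+ and 401, 463 and 320 in mutant libraries, and ranged from 12.8 to 18.1 CPM with the genotypes interleaved.

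The first comparison, mutant against WT, asks what the loss of Meis2 together with the Cre allele changed. None of the 8 tested members passed the study's threshold (the criterion below), which asks for a change of 1.2-fold or more and an unadjusted p under 0.05, against 0.318% of all genes tested (42 of 13200). None had an adjusted p under 0.05 (edgeR quasi-likelihood test, Benjamini-Hochberg over 13200 genes), against 0.00758% of all genes. None had an unadjusted p under 0.05, as 0.371% of the tested genes did. By the criterion DESeq2 called 0 members and 37 of all tested genes, and limma voom 0 members and 40 genes. None of the 10 had groups that did not overlap, against 2.76% of the tested genes. The log2 fold changes of the 8 ran from -0.25 for Junb to 0.09 for Dusp1 and Arc, 4 higher and 4 lower, with a median of 0.006 beside -0.0094 for all tested genes. Fos differed by 0.08 (SE 0.318) and Egr1 by -0.13 (SE 0.228). The values of 7 of the 8 members, all but Dusp1, changed sign under at least 1 alternative. The Jun genes did so without WT library 1, from -0.10 to 0.09 for Jun and from -0.25 to 0.12 for Junb. Fos went to -0.27 without mutant library 2 and Egr1 to 0.05 without mutant library 1, while without mutant library 3 Egr1 kept its sign at -0.41.

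The second comparison, mutant against Isl1Cre/+, keeps the Cre allele in both groups and asks about Meis2 alone. Again 0 of 8 members met the criterion, against 1.67% of the tested genes, and 0 had an adjusted p under 0.05, against 0.00758%. None had an unadjusted p under 0.05, against 2.73% of the tested genes, and none of the 10 was without overlap, against 7.65%. By the criterion limma voom called 0 members and 155 of all tested genes. Of the 8 members, 6 were lower in mutant, with a median of -0.13 beside 0.0003 for all genes. The values of 4 of the 8 (Jun, Junb, Arc and Dusp1) changed sign under at least 1 alternative. Egr1 had the largest value, -0.84 (SE 0.38, adjusted p = 1.0 by edgeR with Benjamini-Hochberg). It followed the 2 high Isl1Cre/+ libraries, and DESeq2 put it past the criterion (-0.83, DESeq2 adjusted p = 1.0), as it did 236 of all tested genes. Without Isl1Cre/+ library 2 Egr1 met the criterion at -1.17 (edgeR adjusted p = 1.0), and without mutant library 3 at -1.12 (edgeR adjusted p = 0.919). Fos was at -0.34 (SE 0.39), Ier2 at -0.23 (SE 0.134) and Nr4a1 at -0.21 (SE 0.193), and Jun, at -0.01 (SE 0.0878), had the smallest value and the smallest error. Ier2 met the criterion without mutant library 2 (-0.34, edgeR adjusted p = 1.0).

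The third comparison, Isl1Cre/+ against WT, asks about the Cre allele and shares its libraries with the other comparisons, so its values are not independent of theirs. None of the 8 members met the criterion, against 1.4% of the tested genes, and none had an adjusted p under 0.05, against 0.0% of all genes by edgeR (236 of 13200 had an unadjusted p under 0.05, and 1 passed by DESeq2). No member had an unadjusted p under 0.05, limma voom called 0 members and 140 of all tested genes by the criterion, and none of the 10 was without overlap, against 5.66%. Of the 8, 5 were higher in Isl1Cre/+, with a median of 0.18 beside -0.0016 for all genes. Egr1 was at 0.72 (SE 0.338), Fos at 0.44 (SE 0.301), Ier2 at 0.29 (SE 0.142), Nr4a1 at 0.20 (SE 0.178) and Dusp1 at 0.16 (SE 0.118). Junb, at -0.25 (SE 0.259), Arc, at -0.16 (SE 0.252), and Jun, at -0.07 (SE 0.143), were on the other side of 0, and all 3 turned positive without WT library 1, to 0.09, 0.07 and 0.09. DESeq2 put Egr1 past the criterion (0.71, DESeq2 adjusted p = 1.0), as it did 199 of all tested genes.

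Single Isl1Cre/+ libraries moved this comparison in both directions. Without library 2, Egr1 was at 1.04, Fos at 0.71 and Nr4a1 at 0.36, and these 3 of 8 members met the criterion, as did 167 of the 13200 tested genes. The adjusted p of each was 0.999 (edgeR, Benjamini-Hochberg). Library 2 was the lowest of its genotype for all 3, so leaving it out had to raise their values. Without library 1 the same 3 were at 0.54, 0.21 and 0.12, and without library 3 at 0.49, 0.33 and 0.09. No member met the criterion in these 2 fits, against 160 and 102 of all genes. Library 2 was chosen for leaving out as 1 of 6 in turn, and its total and its median rank correlation of 0.995 lay within the range of the other libraries or at its upper end. Ier2 met the criterion without WT library 1 (0.37, edgeR adjusted p = 0.786).

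**Figure D2:**
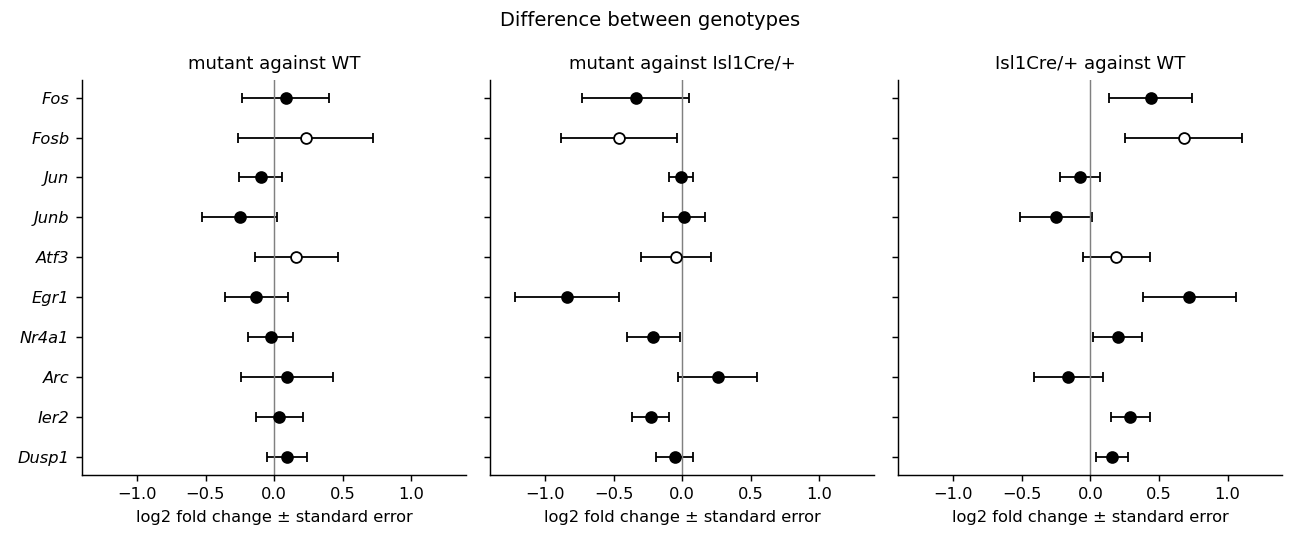
Log2 fold change of each member in the 3 comparisons, with its standard error as a bar (3 libraries a genotype, edgeR). Filled points are the tested members and open points Fosb and Atf3, taken from a fit without the count filter. Egr1 lies farthest from 0 when Isl1Cre/+ is compared with either other genotype (-0.84 and 0.72), and Jun lies close to 0 in all 3 panels.

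The spread between libraries of 1 genotype was wide for these genes. It was measured as the SD of log2 CPM around the genotype means. All 8 tested members lay above the median of all tested genes, 0.146, and Egr1 (0.534), Fos (0.503), Arc (0.407) and Junb (0.327) lay above the 90th percentile of all genes, 0.311. Nr4a1 was at 0.27 and Jun at 0.203, while Ier2 and Dusp1, both at 0.177, were near the 64th percentile. The untested Fosb and Atf3 were at 0.701 and 0.4. A wide spread was not particular to these genes. All tested endothelial (6), macrophage (4), fibroblast (6), erythroid (6), skeletal muscle (5) and cartilage (5) markers also lay above the median of all genes, and the median percentile was 93.6 for the fibroblast markers against 88.9 for the members. Genes of low count are spread wider by counting alone, which would give an SD of 0.166 for Fos and 0.16 for Arc, but only 0.079 for Egr1, 0.0598 for Nr4a1 and 0.0288 for Jun. For Ier2 counting alone would give 0.106 of its 0.177, and its spread beyond counting lay at the 54.8th percentile of the tested genes.

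**Figure D3:**
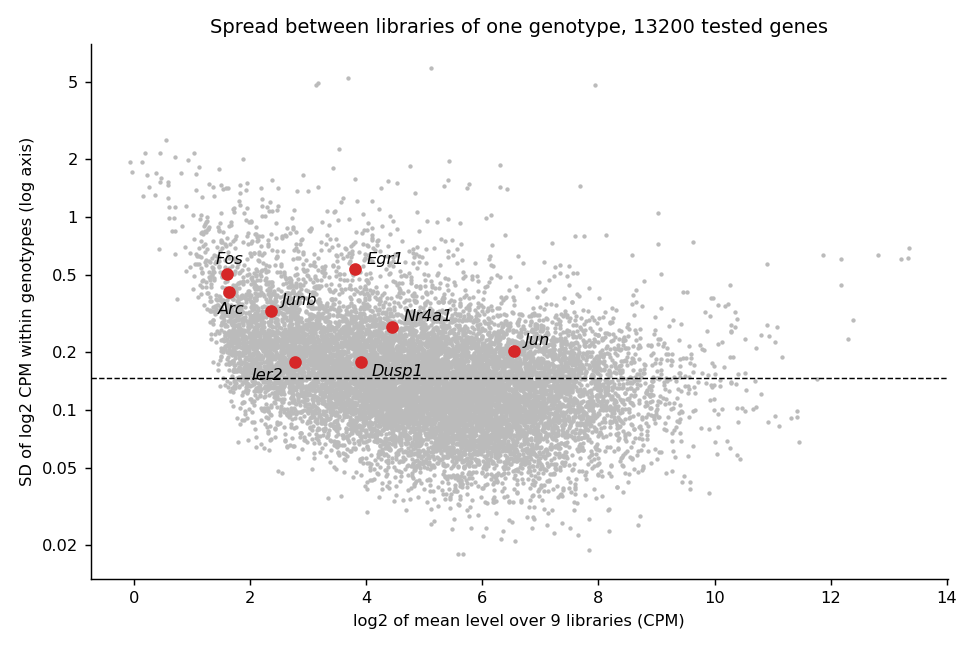
SD of log2 CPM within genotypes (log axis) against the log2 of the mean level over 9 libraries, for the 13200 tested genes (grey) and the 8 tested members (red). The dashed line is the median SD of all tested genes, 0.146. The 8 members all lie above it, from 0.177 for Ier2 and Dusp1 to 0.534 for Egr1.

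Which genotype held this spread differed from gene to gene. The highest Isl1Cre/+ library exceeded the lowest 2.64-fold for Egr1, 2.25-fold for Fos and 1.52-fold for Nr4a1, against 1.24-, 1.19- and 1.24-fold in WT and 1.87-, 2.3- and 1.44-fold in mutant. Chi-square per degree of freedom between libraries, which is near 1 when counting is the only source of spread, was 109 for Egr1 in Isl1Cre/+ and 3.88 in WT. Over all tested genes a related measure was taken between pairs of libraries, by library total and without TMM scaling. It was 12.6 to 20.5 in Isl1Cre/+, 13.8 to 129 in WT, with both high values for pairs with WT library 1, and 39.2 to 61.7 in mutant. It grows with the counts of a gene and is not on 1 scale with the values of single genes. For Fos the chi-square per degree of freedom was 14.4 in Isl1Cre/+, 13.1 in mutant and 0.578 in WT, so the WT libraries differed by no more than counting allows. Jun and Junb had theirs in WT, at 1.49-fold (chi-square per degree of freedom 128) and 1.9-fold (24.1). Arc spread 1.9-fold in mutant and 1.84-fold in WT. Whether these differences in spread between genotypes exceed chance was not tested.

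Ranked within a genotype, the same libraries were low for many members. Isl1Cre/+ library 2 was the lowest of its genotype for 8 of the 10 members, all but Fosb and Jun, and the highest for 0, while of all tested genes it was the lowest for 26.3% and the highest for 30.6%. WT library 2 was the lowest of WT for 6 and the highest for 0 members, and mutant library 1 the lowest of mutant for 6 and the highest for 1. For all tested genes, WT library 2 was the lowest of its genotype for 28.8% and the highest for 22.1%, and mutant library 1 the lowest for 37.8% and the highest for 34.4%. The high libraries were less uniform, with Isl1Cre/+ library 3 the highest of its genotype for 6 members and library 1 for 4, WT library 1 for 6 and library 3 for 4, and mutant library 2 for 5 and library 3 for 4. Of all tested genes, WT library 1 was the highest of its genotype for 48.7% and library 3 for 29.2%. Isl1Cre/+ library 1 was the highest for 39.5% and library 3 for 29.8%, and mutant library 2 for 37.3% and library 3 for 28.3%. Several of the members' counts were thus near the share of all genes. The members are not independent of each other, so these counts describe the libraries and carry no p.

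The mean of the centred log2 levels of the 8 tested members gave each library 1 value. It was 0.30 in Isl1Cre/+ library 1 and 0.24 in library 3, but -0.23 in library 2. In WT it was 0.16, -0.19 and -0.08, and in mutant -0.25, 0.02 and 0.02, so Isl1Cre/+ held both high libraries and a low one. Over the 9 libraries Fos (Pearson r = 0.84), Egr1 (0.79), Nr4a1 (0.75) and Ier2 (0.73) followed this mean, of which each is itself a part, more closely than Arc (0.48), Junb (0.47), Dusp1 (0.42) and Jun (0.33). Among all other tested genes, those closest to this mean were Bin3 (r = 0.95), Tbx2 (0.94), Rnf215, Fstl3 (both 0.93), Caskin2 (0.92), Mfng (0.91), Prr15 (0.90) and Unc5b (0.89), none of them an immediate early gene. The lowest and the highest of the 9 libraries were 1.09-fold apart for Rnf215 and 1.97-fold for Mfng, beside 1.42-fold for Dusp1 and 3.15-fold for Egr1 among the tested members. These values share libraries and scaling factors and were the highest among 13200 genes, so they serve as a description only.

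The closest relatives of the members, looked up after the members' values were known, also differed among themselves in their spread. Egr2, the zinc finger factor of myelinating Schwann cells, had 87, 74 and 170 counts in WT, then 220, 62 and 158 in Isl1Cre/+ and 77, 100 and 96 in mutant libraries, and Egr3, a zinc finger factor needed for muscle spindles, had 84, 206 and 318, then 253, 159 and 349, then 113, 107 and 224. As with Egr1, Isl1Cre/+ library 2 was the lowest of its genotype for both, 3.38-fold below the highest library for Egr2 and 2.17-fold for Egr3. Their SDs within genotypes, 0.647 and 0.727, lay above that of Egr1. Egr4 had at most 4 counts and Fosl1 at most 3, too few to compare. Nr4a2 and Jund, paralogues of Nr4a1 and Jun, were steady, with SDs of 0.0798 and 0.105, below the median of all genes. The other tested relatives of the AP-1 and Ier genes lay above that median, Fosl2 at 0.272, Ier3 at 0.269 and Ier5 at 0.2. In Isl1Cre/+, where Nr4a1 ranged 1.52-fold, Nr4a2 ranged 1.01-fold. Of the other phosphatases of the Dusp1 family that were tested, Dusp4 (0.125) and Dusp5 (0.139) were below and Dusp6 (0.248) was above that median.

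**Figure D4:**
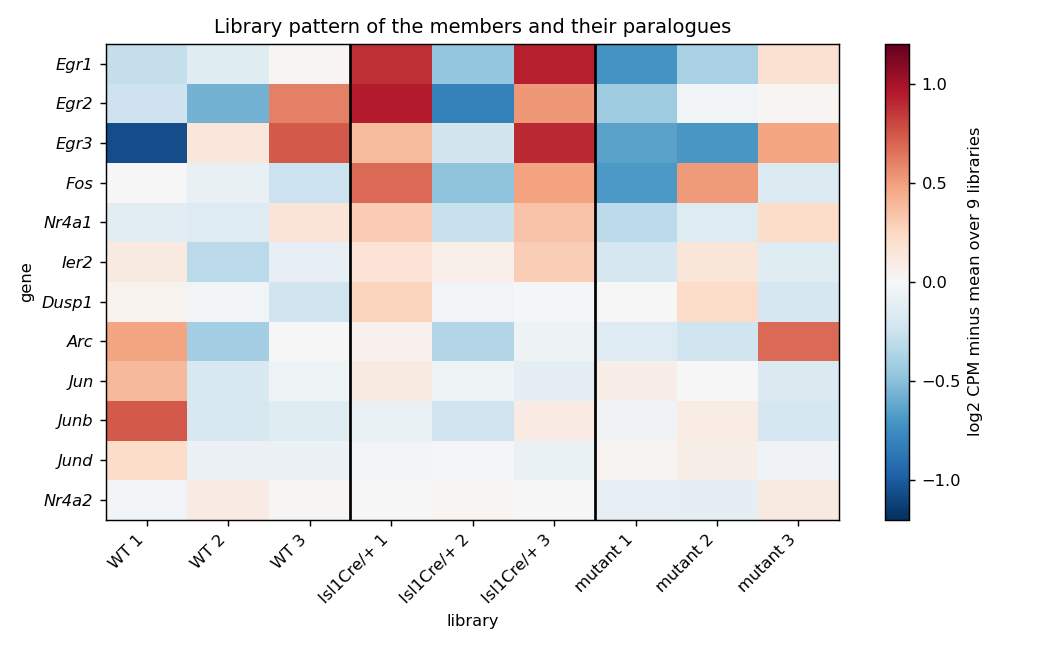
Log2 CPM minus the mean of the gene over 9 libraries, for the tested members and 4 paralogues (rows) in each library (columns, black lines between genotypes). Red is above and blue below the gene's own mean. Egr1, Egr2, Egr3, Fos and Nr4a1 are red in Isl1Cre/+ libraries 1 and 3 and blue in library 2, Jun and Junb stand out in WT library 1, and Nr4a2 stays pale.

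Other genes of the response were taken as lists. Of 41 tested other immediate early genes, 0 met the criterion in any of the 3 comparisons, with a median log2 fold change of 0.04 in each, and 27 had an SD within genotypes above the median of all genes. The 2 most abundant, Plk2, a kinase of synaptic scaling, and Nptx2, a secreted synaptic pentraxin, ranged only from 142 to 161 and from 89.8 to 124 CPM. Of 19 tested genes of the sensory axon injury response, 15 had an SD above that median, the median log2 fold changes were -0.046, -0.075 and -0.004 in the order of the comparisons, and 1 gene met the criterion, in mutant against WT. This was Nts, which encodes the neuropeptide neurotensin, lower by a log2 fold change of -0.53 (SE 0.215, edgeR adjusted p = 1.0), at 84, 91 and 104 counts in WT, then 76, 68 and 75 in Isl1Cre/+ and 53, 73 and 52 in mutant libraries. Nts passed the count filter only through WT library 3, in the genotype where it was highest, so its call is not independent of the filter. Gap43, the growth cone protein, stood at 1340 CPM in WT library 1 and at 794 to 972 CPM in the other 8, and Cacna2d1, a calcium channel subunit raised by nerve injury, ranged from 227 to 370 CPM.

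The signalling and stress genes around the members were described in the same way. Of 24 tested upstream kinases and transcription factors, 0 met the criterion in any comparison (median log2 fold changes -0.057, -0.042 and 0.022) and 7 had an SD above the median of all genes. Mapk3, a kinase upstream of Fos and Egr1, ranged from 445 to 553 CPM. Of 12 heat shock and chaperone genes 0 met the criterion (medians -0.039, 0.026 and -0.042) and 3 were above the median SD, and the most abundant, Hsp90ab1 and Hspa8, ranged from 3070 to 4290 and from 1440 to 1750 CPM. Of 11 tested genes of the integrated stress and unfolded protein responses 0 met the criterion (medians -0.01, 0.113 and -0.069) and 5 were above the median SD. Among these Hspa5, the chaperone of the endoplasmic reticulum, ranged from 406 to 504 CPM and Asns, the asparagine synthetase, from 140 to 175 CPM.

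Other cell types can carry these transcripts, and in whole ganglia fewer cells of a type and less RNA per cell cannot be told apart. Summed endothelial and pericyte markers were 382 to 431 CPM in WT, 443 to 576 in Isl1Cre/+ and 348 to 502 in mutant libraries, highest in Isl1Cre/+ library 1, where Egr1 and Fos were high, with 474 CPM in library 3 and 443 in library 2. Of 6 such markers 2 met the criterion as higher in Isl1Cre/+ than in WT and 1 as lower in mutant than in Isl1Cre/+. Schwann and satellite glial markers summed to 768 CPM in Isl1Cre/+ library 2, against 957 and 893 in libraries 1 and 3, and to 805 to 949 in WT and 827 to 863 in mutant, with 0 of 6 meeting the criterion in any comparison. Macrophage markers summed to 45.1 to 115 CPM and fibroblast markers to 2560 to 4910 CPM over all libraries, both lowest in mutant library 1 and highest in mutant library 2, again with 0 of the 4 and 6 tested meeting it. Cartilage markers summed to 40.4 to 102, spinal cord markers to 136 to 222 and sympathetic neuron markers to 17.5 to 35.9 CPM. Only 2 of the 6 spinal cord markers passed the count filter, Gfap among them, so their sum was not taken as a measure of cord tissue. The criterion was met by 2 of 5 cartilage and 1 of 4 sympathetic markers as higher in mutant than in Isl1Cre/+, by 1 and 2 as lower in Isl1Cre/+ than in WT, and by 1 sympathetic and 1 of 10 sensory neuron markers as lower in mutant than in WT. The sensory neuron marker was Isl1 itself, which carries the Cre allele, and it was also lower in Isl1Cre/+ than in WT (-0.48, SE 0.126). The part of these cells in the members' values was not tested.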

How the data were processed

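Poly(A) RNA of E18.5 DRGs was made into libraries with unique molecular identifiers. Per the study's methods and the submitters' processing notes, the authors aligned single-end reads to mm10 (GRCm38) with STAR 2.7.10, removed duplicates by identifier and deposited raw counts per gene from HTSeq 0.6. The annotation release and the strand option are not given in the sources used here. The columns of log2 fold changes and p-values of the authors' own limma comparisons in the deposited table were not used.

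Genotypes were taken from the labels. Genes with at least 100 counts in 1 or more of 9 libraries were tested per pair of genotypes with edgeR 4.0.16 (TMM, quasi-likelihood F test, two-sided), with Benjamini-Hochberg adjustment over 13200 genes, in R 4.3.3. An exact permutation test of 3 against 3 libraries cannot go below p = 0.1 and was not run. The SE of a log2 fold change is its size over the square root of F. CPM used TMM factors over all libraries, and SDs of log2 CPM a prior count of 0.5. The script was tested on simulated data. Alternatives used DESeq2 1.42.0 or its size factors, limma 3.58.1 (voom), library size only, no filter, all genotypes in 1 fit, a replicate block and leaving out each library. The members, lists and tests were chosen with earlier results of these data known. Genes named beyond the members were the 2 most abundant of each response list, those meeting the criterion there, and the 8 closest to the members' mean. A gene that this rule names among the upstream kinases is not reported here. Relatives of the members by family were added after the members' values were seen. Totals of 23854607 to 29103444 counts set the counting precision, and the spread between 3 libraries the rest.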

Additional observations from a re-analysis of the deposited data

How the results depend on the processing

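No member had an adjusted p under 0.05 in any comparison under any alternative run, and mutant against WT kept 0 members meeting the criterion under all of them. The median log2 fold change of the members ranged from -0.103 to 0.129 in mutant against WT (main value 0.006), from -0.196 to -0.051 in mutant against Isl1Cre/+ (-0.133) and from 0.088 to 0.272 in Isl1Cre/+ against WT (0.178), moves smaller than the SD of 0.22 of the members' mean log2 level between libraries of a genotype. The count of members meeting the criterion in mutant against Isl1Cre/+ rose from 0 to 1 with no filter on low counts, with DESeq2 and with all 3 genotypes in 1 fit (Egr1 each time), where 1028, 236 and 191 of all genes tested met it. Leaving out 1 library gave 0 to 1, and the fits that called a member called 228 (without Isl1Cre/+ library 2), 217 (mutant library 2) and 325 (mutant library 3) of all genes. In Isl1Cre/+ against WT it rose to 1 with library size only (Ier2), with no filter and with DESeq2 (Egr1 both times), where 163, 845 and 199 of all genes met it. Leaving out 1 library gave 0 to 3, with 340 of all genes without WT library 1 and 167 without Isl1Cre/+ library 2. Leaving out WT library 1 and mutant library 2 together, an alternative chosen after seeing the data, differs from leaving out 1 library in mutant against WT alone, where the count stayed 0 while 182 of all 13200 tested genes met the criterion. In the other comparisons, each of which holds 1 of the 2 libraries, the count was 1 (Ier2), beside 217 of all genes in mutant against Isl1Cre/+ and 340 in Isl1Cre/+ against WT. The cause was not tested. The 8 tested members stayed above the median spread of all genes with DESeq2 size factors, with library size only, by the coefficient of variation and without each library in turn, the alternatives run for it.

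Without the filter the criterion was met by 408, 1028 and 845 of all genes in the 3 comparisons, against 42, 221 and 185 with it, in fits that tested 32358 to 32546 genes. Deviations of libraries with the same replicate number correlated from -0.604 to 0.427, and a library correlated best with its own number in 7 of 18 cases, so the numbers were not taken as pairs. With the replicate block 0 members met the criterion in each comparison and 31, 177 and 236 of all genes did. In mutant against WT the count over all genes was 132 without WT library 1, 67 without WT library 3, 120 without mutant library 1 and 74 without mutant library 2. It was 407 without mutant library 1 in mutant against Isl1Cre/+, and 340 without WT library 1 and 102 without Isl1Cre/+ library 3 in Isl1Cre/+ against WT. Counting alone gave an SD of 0.166 of the 0.503 seen for Fos and 0.16 of the 0.407 for Arc (log2). Fosb and Atf3 were left out by the count filter and fitted only without it, where neither met the criterion.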
